A study of Mus musculus with 4 samples.

Results

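A set of 29 genes of cholesterol synthesis, uptake, storage and export was followed in mouse small intestinal (SI) organoids, which are epithelial cultures grown from isolated crypts. The genes were chosen by symbol for their place in the pathway, with earlier results of these data known. The list is therefore not independent of the data when its counts are set beside shares of all genes. All 29 were found among the 55487 listed genes and stayed among the 17155 that passed edgeR's filter on low counts. They comprise 18 enzymes of cholesterol synthesis, 5 regulators, the intracellular carrier Stard4, 4 genes of uptake and efflux, and the esterifying enzyme Soat2. The list is not the whole pathway, and other steps were not analysed here.

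Mouse SI organoids carried a lentivirus with either the miR-181a-5p mimic (MLMIR0085) or the miRNA mimic control (NCLMIR002), and organoids of both groups were selected with 2 μg/ml puromycin for stably transduced cells. RNA was sequenced from 2 libraries with the mimic control (replicates 1 and 2) and 2 with the miR-181a-5p mimic (replicates 3 and 4), which held 31104884 to 38111731 expected counts. It is not stated whether replicate libraries derive from different transductions, cultures or mice, so the p-values measure the spread between these libraries, which may be technical. The study used C57BL/6 mice, and the age of those that gave the organoids is not given in the sources used here.

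Cells make cholesterol from acetyl-CoA. The mevalonate arm builds isoprenoid units and joins them to farnesyl diphosphate, and the sterol arm turns these into squalene, lanosterol and then cholesterol. When sterol in the endoplasmic reticulum is low, Scap carries the membrane-bound transcription factors SREBP-1 and SREBP-2 to the Golgi, where they are released to the nucleus and switch on the enzymes of synthesis. Insig1 and Insig2 hold Scap back when sterol is high. In the small intestine, enterocytes also take up cholesterol from the lumen through Npc1l1, esterify it with Soat2, return sterols to the lumen through the pair Abcg5 and Abcg8, and send cholesterol to lipoproteins through Abca1. Genes of efflux are typical targets of the oxysterol receptors LXR.

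The mimic supplies miR-181a-5p, whose seed, bases 2 to 8, pairs with matching sites in the 3' UTR of an mRNA. The mature sequence from RefSeq is given with the seed in capitals, because the same letters decide which of the 29 genes carry a site.
miR-181a-5p: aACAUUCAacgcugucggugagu
A site of the 7mer-m8 kind, which reads TGAATGT, was found in the longest annotated 3' UTR of 4 of the 29 genes. Across all tested genes with a 3' UTR of at least 50 bases, 18.4% of 12847 carried such a site, and the median 3' UTR was 900 bases long in the sterol genes and 1165 bases in those genes. The matching windows, 23 bases each on the sense strand with the site in capitals, are shown for the 4 genes.
Fdft1: actgcctcagccttcTGAATGTa
Nsdhl: agctcaaagtattgaTGAATGTa
Hsd17b7, site 1: ttcaagagaaaggtgTGAATGTg
Hsd17b7, site 2: ttcctgggctcttgaTGAATGTa
Insig2: ggggctttgtttagaTGAATGTg
The 3 enzymes of the sterol arm with a site had log2 fold changes above 0 with the mimic (Fdft1 0.48, Nsdhl 0.65, Hsd17b7 0.47), and Insig2 had one of -0.09. None of these 4 genes was called lower. Over the 12847 genes, the median log2 fold change was 0.03 both with and without a site. A match of letters describes the sequence and does not show that the miRNA binds there.

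The libraries carried the markers of the tissue named in the labels. The summed level of 8 epithelial genes was between 4484 and 5162 normalized CPM (counts scaled to a common library size after TMM correction), and that of 10 genes of mesenchyme, endothelium and leukocytes was between 2.62 and 3.18, with Col1a2, Dcn and Cdh5 at 0 in every library. In bulk RNA, fewer cells of a type and less RNA per cell cannot be told apart, and this holds for every difference below.

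Levels between genes were compared on the TPM scale, which corrects for length. Hmgcs1, the synthase that condenses acetyl groups into HMG-CoA, was the most abundant of the 29 genes with a mean of 278 TPM over the 4 libraries, followed by the farnesyl diphosphate synthase gene Fdps with 271 TPM and by Insig1 with 259 TPM. The values of these 3 genes overlapped between libraries, so their order is not resolved beyond the spread. The lowest was Abca1 with a mean of 2.06 TPM, below Insig2 with 15.1 TPM, and these ranges did not overlap. The 18 synthesis genes summed to 1218 and 1792 TPM in the controls and to 1782 and 2517 TPM with the mimic. Control replicate 2 and mimic replicate 3 thus stood at nearly the same total. The 4 genes of uptake and efflux summed to 190.0 and 221 TPM in the controls and to 206 and 217 TPM with the mimic, so the mimic values lay between those of the controls.

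**Figure D1:**
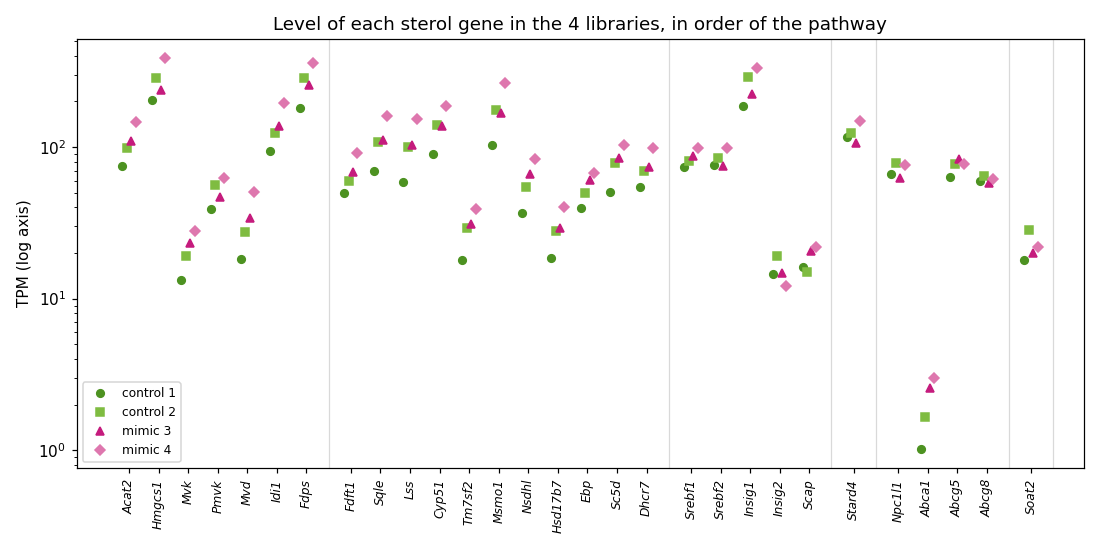
Level in TPM (log axis) of each of the 29 genes in pathway order, from the mevalonate and sterol arms through regulators and the carrier Stard4 to uptake, efflux and esterification; each marker is 1 library. Control replicate 1 is the lowest marker of most synthesis genes and mimic replicate 4 the highest, and Abca1 lies far below the rest at 1.02 to 2.98 TPM.

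With the miR-181a-5p mimic, all 18 synthesis genes had a log2 fold change above 0, with a median of 0.50 and a range from 0.13 in Pmvk to 0.81 in Mvd, and none passed the test. Over all genes tested, 48.6% had a log2 fold change above 0 and the median was -0.01. When p-values of edgeR's quasi-likelihood test were adjusted after Benjamini and Hochberg over 17155 genes, 0 of the 29 genes had an adjusted p under 0.05, while 3.57% of all tested genes did in either direction (1.28% higher and 2.29% lower with the mimic). When the fold also had to reach 2, the count for the 29 genes was again 0, against 2.06% of all tested genes. At an unadjusted p under 0.05 stood 14 of the 29 genes, among them 12 of the 18 synthesis genes, where 24.8% of all tested genes did. The adjusted p of the synthesis genes ran from 0.0742 for Ebp to 0.686 for Pmvk. Other tests on the same counts gave more calls, namely 9 of the 29 genes by edgeR's exact test and by its likelihood-ratio test, and 6 by DESeq2. All of these calls were higher with the mimic. Over all genes, the exact test, the likelihood-ratio test and DESeq2 called 4.41%, 4.62% and 3.57% higher, against 1.28% by the quasi-likelihood test. In either direction they called 1778, 1864 and 1322 genes, respectively, against 612.

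On the normalized CPM scale, the groups of libraries did not overlap, with the mimic higher, in 12 of the 18 synthesis genes, beside 28.9% of all tested genes. On the TPM scale 13 of the 18 separated, since Lss and Hsd17b7 then did and Cyp51 did not. The share of all tested genes was taken on the CPM scale only, so the count on the TPM scale has none beside it. The CPM values overlapped in Hmgcs1, Pmvk, Fdps, Lss, Msmo1 and Hsd17b7, where control replicate 2 lay above mimic replicate 3. Control replicate 1 was the lowest library in 18 of 18 synthesis genes, against 30.4% of all tested genes, and mimic replicate 4 was the highest in 17 of 18, against 18.4%. Ebp was the exception, with mimic replicate 3 slightly higher. The synthesis genes thus moved together between libraries of the same group as well. Control replicate 2 exceeded control replicate 1 in all 18, by a median of 0.53 on the log2 scale (range 0.22 to 0.74), and mimic replicate 4 exceeded mimic replicate 3 in 17, by a median of 0.33. For all genes tested these medians were -0.01 and 0.00. In 9 of the 18 genes the controls differed by more than the log2 fold change between groups. For 1 gene, the smallest p that an exact two-sided permutation test over these libraries can give is 0.333.

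**Figure D2:**
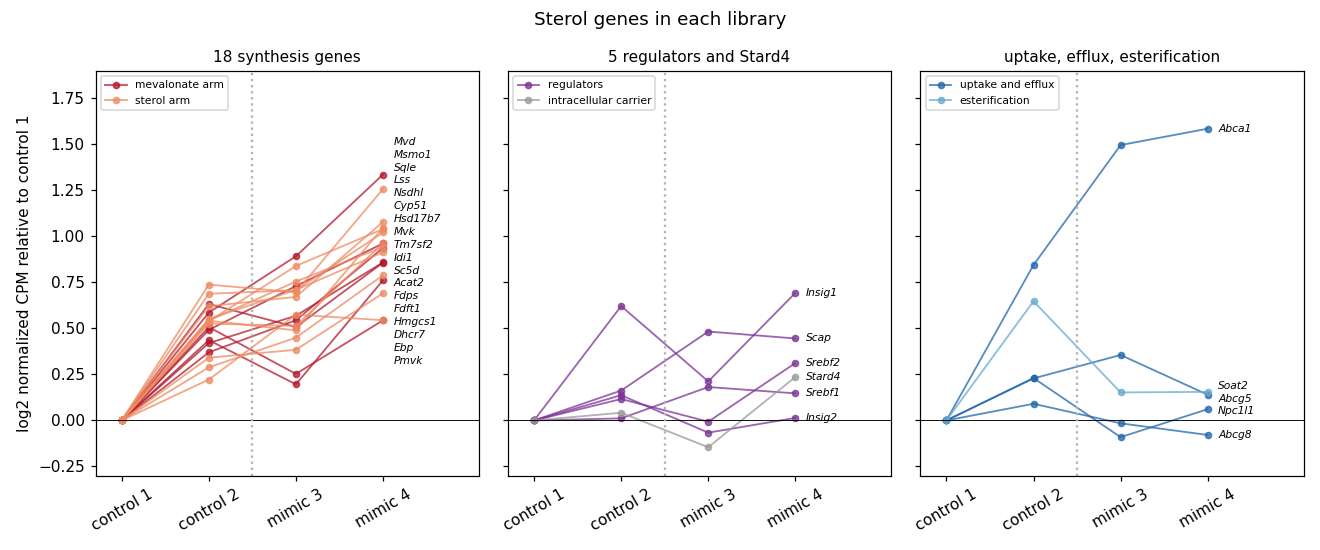
Normalized CPM of each gene in the 4 libraries on the log2 scale, relative to control replicate 1, for the 18 synthesis genes (left), the 5 regulators and Stard4 (middle), and the genes of uptake, efflux and esterification (right); each line is 1 gene. The synthesis genes move as a bundle, with a mean of 0.50 in control replicate 2, 0.58 in mimic replicate 3 and 0.92 in mimic replicate 4, whereas the genes on the right spread apart.

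In the mevalonate arm, the largest difference was in Mvd, which encodes the decarboxylase that yields isopentenyl diphosphate. Its normalized CPM were 25.5 and 38.3 in the controls, and 47.4 and 64.5 under the mimic, a log2 fold change of 0.81 (SE 0.21, adjusted p = 0.0800). The groups did not overlap, but the gap between the controls was 0.59 on the log2 scale. Mvk, the mevalonate kinase gene, had 17.0 and 23.9 CPM in the control libraries and 28.2 and 33.1 under the mimic, a log2 fold change of 0.59. Idi1, which interconverts the 2 isoprenoid units, had 223 and 288 CPM in the control libraries and 325 and 427 in those with the mimic, a log2 fold change of 0.56. Both genes separated the groups without passing the test (adjusted p = 0.107 and 0.104). Acat2, a cytosolic thiolase that supplies acetoacetyl-CoA, also separated them, with 128 and 171 CPM against 189 and 231 (log2 fold change 0.50).

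The 3 genes of this arm whose values overlapped included its most abundant members. Hmgcs1 had 537 and 727 CPM in the control libraries and 616 and 911 under the mimic, a log2 fold change of 0.27 (SE 0.21). Fdps had 180.9 and 280.4 CPM in the control libraries and 257 and 328 in those with the mimic, a log2 fold change of 0.34. Pmvk, the phosphomevalonate kinase gene, had 36.1 and 51.3 CPM in the control libraries and 43.0 and 52.7 under the mimic, so that control replicate 2 nearly reached the highest library. Its log2 fold change of 0.13 (SE 0.18) was the smallest among the synthesis genes.

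In the sterol arm, 8 of 11 genes separated the groups on the CPM scale with the mimic higher, beside 28.9% of all tested genes. On the TPM scale Lss and Hsd17b7 also separated them and Cyp51 did not. The median log2 fold change of this arm was 0.50, as in the mevalonate arm. Nsdhl, a dehydrogenase that takes part in removing methyl groups from the sterol ring, had 64.4 and 93.5 CPM in the control libraries and 115 and 132 in those with the mimic, the largest log2 fold change of this arm at 0.65 (SE 0.17, adjusted p = 0.0820). Ebp, a sterol isomerase, had 38.3 and 44.7 CPM in the control libraries and 57.0 and 55.8 under the mimic. Its log2 fold change of 0.44 had the smallest standard error of the 18 enzymes (0.11), and its adjusted p of 0.0742 was the lowest among them. Fdft1, the squalene synthase gene at the entry of the arm, had 108 and 132 CPM in the control libraries and 148 and 187 in those with the mimic (log2 fold change 0.48). Tm7sf2, a sterol reductase, had 21.6 and 31.5 CPM in the control libraries and 36.5 and 41.6 under the mimic (log2 fold change 0.56). In both, control replicate 2 lay below mimic replicate 3.

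Sc5d, the lathosterol desaturase gene, had 90.1 and 132 CPM in the control libraries and 147 and 169.8 in those with the mimic, a log2 fold change of 0.51. Dhcr7, which makes cholesterol from its last precursor in one branch of the pathway, had 98.2 and 124 CPM against 128 and 158, a log2 fold change of 0.37 and the smallest of this arm. In Dhcr7 and in the next genes, control replicate 2 and mimic replicate 3 were close to each other. Sqle, the squalene epoxidase gene, had 159 and 244 CPM in the control libraries and 253 and 335 under the mimic. Cyp51, the lanosterol demethylase gene, had 249 and 401 CPM in the control libraries and 406 and 505 in those with the mimic. The log2 fold changes of these genes were 0.55 and 0.49, and the difference between controls was larger in both (0.62 and 0.69). The 3 genes that overlapped on the CPM scale were the lanosterol synthase gene Lss, the methyl sterol oxidase gene Msmo1 and the sterone reductase gene Hsd17b7. Their log2 fold changes were 0.50, 0.59 and 0.47. Lss had 159.5 and 232 CPM against 224 and 329.8, and Hsd17b7 had 51.5 and 74.2 CPM against 73.5 and 100.4. In each of the 3, control replicate 2 was just above mimic replicate 3. Of the 11 genes, Msmo1 had the highest mean level with 178 TPM, in libraries at 104 and 176 TPM for the controls and at 168 and 265 TPM for the mimic. The lowest mean levels were in Hsd17b7 with 28.9 TPM and Tm7sf2 with 29.2 TPM, whose libraries overlapped.

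**Figure D3:**
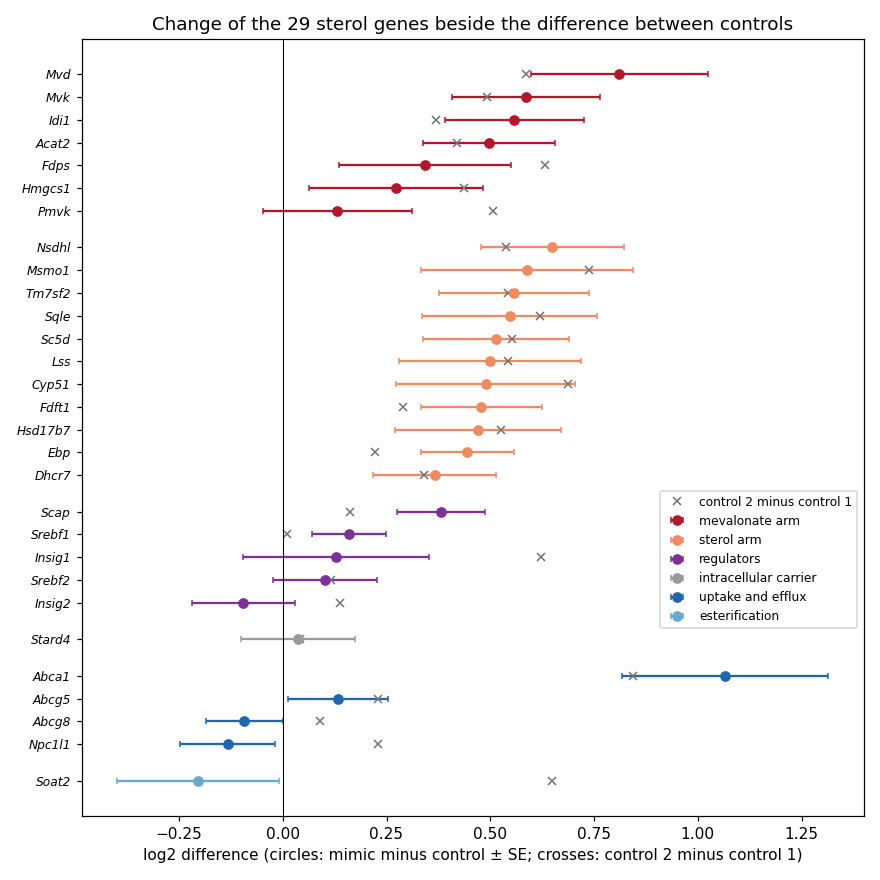
Log2 fold change of the 29 genes, mimic minus control, as circles with the standard error as bars (n = 2 libraries per group), and the log2 difference between control replicates 2 and 1 as crosses. The 18 circles of synthesis lie between 0.13 and 0.81, and in 9 of them the cross lies further to the right than the circle.

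The median log2 fold change of the 5 regulators was 0.13, and none was called. Scap, the sterol sensor that escorts SREBP, had 41.3 and 46.2 CPM in the control libraries and 57.7 and 56.2 under the mimic, a log2 fold change of 0.38 (SE 0.11, adjusted p = 0.0883). The libraries of a group were close together in Scap and the groups did not overlap. Srebf1, which encodes SREBP-1, had 139 and 140.3 CPM in the control libraries and 158 and 154 in those with the mimic, a log2 fold change of 0.16 (SE 0.09, adjusted p = 0.309), again without overlap. Srebf2, which encodes SREBP-2, had 255 and 277 CPM in the control libraries and 254 and 317 under the mimic, so that its groups overlapped (log2 fold change 0.10, SE 0.13). Insig1, itself a target of SREBP, had 374 and 575 CPM in the control libraries and 433 and 605 in those with the mimic, a log2 fold change of 0.13 (SE 0.22). The difference between its controls was 0.62, and the values followed those of the enzymes in control replicate 1 being lowest and mimic replicate 4 highest. Insig2 lay between 19.5 and 22.4 CPM in all 4 libraries (log2 fold change -0.09, SE 0.12). Stard4, which carries sterol between membranes and is also a known SREBP-2 target, had 405 and 417 CPM in the control libraries and 366 and 477 under the mimic (log2 fold change 0.04, SE 0.14). Its lowest library was mimic replicate 3.

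Abca1 had the largest log2 fold change of the 29 genes, 1.07 (SE 0.25), or a 2.09-fold difference. Its normalized CPM were 7.80 and 14.0 in the controls, and 22.0 and 23.4 under the mimic, or 10.9 ± 4.39 and 22.7 ± 0.99 (SD, n = 2). The mimic libraries were close together and above both controls, while the controls themselves differed by 0.84 on the log2 scale. The adjusted p was 0.0621 by edgeR's quasi-likelihood test, so Abca1 was not called. On the same 4 libraries it was called by edgeR's exact test (adjusted p = 0.00262), its likelihood-ratio test (0.00236) and DESeq2 (0.00256). These called 4.41%, 4.62% and 3.57% of all genes higher. By limma on log2 TPM it was not called, with an adjusted p from 0.168 to 0.348. The other 3 genes of transport had log2 fold changes between -0.13 and 0.13. Npc1l1, the importer of luminal cholesterol, had 245 and 288 CPM in the control libraries and 230.3 and 256 in those with the mimic (log2 fold change -0.13, SE 0.11, adjusted p = 0.510). Its groups overlapped, with the lowest library in the mimic and the highest in the controls. Soat2 had 32.2 and 50.5 CPM in the control libraries and 35.8 and 35.9 under the mimic, so that both mimic libraries lay between the controls (log2 fold change -0.20, SE 0.19).

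Abcg5 and Abcg8 encode the partners of a single sterol exporter and lie on opposite strands of chromosome 17 of GRCm38. RefSeq lists a pair of start sites for Abcg8, of which the nearer to that of Abcg5 lies 110 bases away and the other inside Abcg5, and the gene starts in GENCODE lie 6709 bases apart. Abcg5 had 109 and 127 CPM in the control libraries and 139 and 119.6 in those with the mimic, and its groups overlapped (log2 fold change 0.13, SE 0.12, adjusted p = 0.527). Abcg8 had 144 and 154 CPM in the control libraries and 143 and 137 under the mimic, so that its groups did not overlap on this scale, with the mimic lower, as in 29.5% of all tested genes (log2 fold change -0.09, SE 0.09, adjusted p = 0.572). On the TPM scale its groups overlapped, at 59.4 and 64.1 in the controls against 57.95 and 61.5. The annotated spans of the pair overlap on opposite strands and the strand setting of the counting is not given in the sources used here, so reads in the overlap may have been divided between them.

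Synthesis and transport were then set side by side. The median log2 fold change was 0.50 over the 18 synthesis genes and 0.02 over the 4 genes of uptake and efflux, a difference of 0.48, and the second median rests on 4 genes of which Abca1 is far from the rest. Within each library, the mean log2 CPM of synthesis minus that of uptake and efflux was 0.26 and 0.41 in the controls, and 0.40 and 0.75 under the mimic. The groups overlapped on this scale. Without Abca1, which was left out here after its values were seen, the same difference was -0.83 and -0.51 in the controls, and -0.33 and 0.05 under the mimic, and the groups did not overlap. As a ratio of summed TPM, synthesis was 6.41 and 8.09 times uptake and efflux in the controls, and 8.65 and 11.6 times under the mimic. No test was made of this contrast.

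The number of calls and the medians moved with the libraries that entered the fit. Without control replicate 2 the median log2 fold change of synthesis was 0.78, and without control replicate 1 it was 0.26. This median was 0.65 without mimic replicate 3 and 0.33 without mimic replicate 4. The difference of medians between synthesis and transport was 0.32 without control replicate 1, 0.66 without control replicate 2 or mimic replicate 3, and 0.24 without mimic replicate 4. Each of these fits leaves a group with a single library, which is taken to vary like the libraries of the other group. Synthesis genes with a log2 fold change above 0 numbered 17 of 18 without control replicate 1, where Pmvk stood at -0.11, and 16 of 18 without mimic replicate 4, where Hmgcs1 stood at -0.035 and Pmvk at -0.02.

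**Figure D4:**
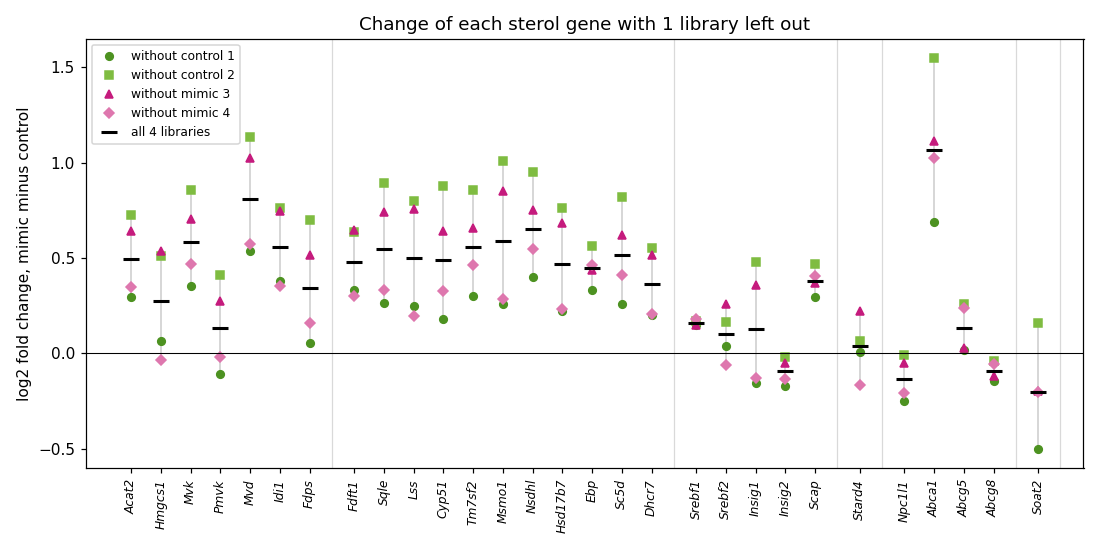
Log2 fold change of each of the 29 genes, mimic minus control, with all 4 libraries (black bar) and with 1 library left out (markers). For the synthesis genes the values without control replicate 2 are mostly the highest and those without control replicate 1 or mimic replicate 4 the lowest; the median over the 18 genes runs from 0.26 to 0.78.

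Markers of mature enterocytes also differed between the controls. Of 18 absorptive enterocyte genes, 17 were higher in control replicate 2 than in control replicate 1, with a summed level of 10946 and 12705 CPM in the control libraries and of 11660 and 10174 CPM with the mimic. All 9 genes of the proximal small intestine were higher in control replicate 2, with sums of 1642 and 2813 CPM in the control libraries and of 1228 and 1241 CPM with the mimic. Fabp1, Apoa4, Lct and Slc2a2 stand in both lists, so these counts are not separate. The enterocyte sum was lowest in mimic replicate 4, where synthesis was highest, but it includes Anpep, which was called lower with the mimic. As a mean log2 CPM over the 18 enterocyte genes, mimic replicate 4 (8.02) was nearly level with control replicate 1 (8.05), where synthesis was lowest. This mean was 8.54 in control replicate 2 and 8.17 in mimic replicate 3. The stem cell genes summed to 2599 and 1934 CPM in the control libraries and to 2302 and 2585 CPM with the mimic, so that the controls differed in the opposite direction. The part of cell composition in the values of the sterol genes was not tested.

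Promoters from RefSeq (GRCm38.p6), 250 bases before to 50 after each start site, were available for 24 of the 29 genes and were searched on both strands for letters linked to SREBP control. The members without a promoter here were Fdps, Fdft1, Sqle, Stard4 and Soat2. Some genes have several promoters, and a gene was counted if any of its promoters held the letters. The NF-Y box CCAAT, bound by a partner of SREBP, was present in 21 of 24 genes, including 14 of 15 synthesis genes and 3 of 4 genes of uptake and efflux, against 41.1% of all genes in the table. Among the genes of uptake and efflux, Abcg5 and Abcg8 share a box that was counted for each. A sterol element written TCACNCCAC was present in 1 of 24, Hmgcs1, against 1.44% of all genes, and the E-box CACGTG in 6 of 24, against 8.09%. Other forms of the sterol element were not searched, and a match describes the letters without showing binding. By promoter instead of by gene, the shares were 37.4% for CCAAT, 1.24% for TCACNCCAC and 7.15% for CACGTG.

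Windows are printed for Hmgcs1, the gene with the sterol element, for Mvd with the largest difference among the enzymes, and for Abca1 and Abcg8 on the side of efflux. Each is written in the direction of the gene, with all 3 motifs in capitals on either strand (ATTGG is CCAAT read from the other strand), and in these windows the matches do not overlap.
Hmgcs1, chr13:119690101-119690400, plus strand: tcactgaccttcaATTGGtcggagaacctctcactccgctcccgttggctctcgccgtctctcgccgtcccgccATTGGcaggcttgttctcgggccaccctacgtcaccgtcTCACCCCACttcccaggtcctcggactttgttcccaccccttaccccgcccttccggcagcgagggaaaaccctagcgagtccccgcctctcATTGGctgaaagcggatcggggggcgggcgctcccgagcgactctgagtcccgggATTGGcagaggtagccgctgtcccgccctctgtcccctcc
Mvd, chr8:122443373-122443672, minus strand: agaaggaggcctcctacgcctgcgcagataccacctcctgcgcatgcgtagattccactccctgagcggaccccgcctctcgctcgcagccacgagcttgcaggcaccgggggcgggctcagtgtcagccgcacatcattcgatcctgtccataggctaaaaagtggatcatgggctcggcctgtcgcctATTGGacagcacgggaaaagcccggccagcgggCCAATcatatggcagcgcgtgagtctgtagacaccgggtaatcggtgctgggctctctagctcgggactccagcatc
Abca1, chr4:53159846-53160145, minus strand: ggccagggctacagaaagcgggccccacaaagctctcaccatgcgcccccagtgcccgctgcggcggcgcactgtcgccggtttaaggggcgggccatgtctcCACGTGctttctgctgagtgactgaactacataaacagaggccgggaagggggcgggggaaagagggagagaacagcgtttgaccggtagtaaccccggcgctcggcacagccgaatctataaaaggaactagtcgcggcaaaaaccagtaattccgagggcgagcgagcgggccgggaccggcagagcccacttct
Abcg8, chr17:84682871-84683170, plus strand: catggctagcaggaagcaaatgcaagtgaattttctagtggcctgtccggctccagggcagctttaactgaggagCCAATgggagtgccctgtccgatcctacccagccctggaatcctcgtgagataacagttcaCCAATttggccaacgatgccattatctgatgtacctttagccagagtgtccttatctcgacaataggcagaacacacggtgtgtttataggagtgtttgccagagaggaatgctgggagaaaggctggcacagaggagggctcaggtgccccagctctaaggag
The Hmgcs1 window holds 4 NF-Y boxes and the sterol element, which starts at position -137 from the start site. Mvd holds 2 NF-Y boxes, and the window of Abcg8, which takes in the start of Abcg5 on the other strand, also holds 2. The other promoter of Abcg8, at the start site inside Abcg5, is not printed and holds none of the 3 motifs. The Abca1 window holds an E-box at position -147 and no CCAAT. Npc1l1, Abcg5 and Abcg8, with log2 fold changes near 0, carried CCAAT as did Mvd. The only box of Abcg5, at its start site, is the same stretch of bases as the Abcg8 box at position -114. A relation between the motifs and the changes was not tested.

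Genes next to the pathway were counted in the same way from fixed lists. Of 14 fatty acid synthesis targets of SREBP, 13 were tested, 12 had a log2 fold change above 0 and none was called, with a median of 0.34. Over all tested genes, 48.6% were above 0, and 1.28% and 2.29% were called higher and lower. Control replicate 1 was lowest in 11 of the 13 and mimic replicate 4 highest in 12, against 30.4% and 18.4% of all tested genes. The cholesterol enzymes had the same order. Fasn, the fatty acid synthase gene, had 496 and 625 CPM in the control libraries and 698 and 746 in those with the mimic, and Acly, which supplies cytosolic acetyl-CoA, had 408 and 411 CPM against 361 and 453. The list was drawn up as targets of the same factors and is not confined to enzymes of fatty acid synthesis. Its gene Tmem97 stands in the list of lysosomal and intracellular sterol transport as well, so these lists are not separate.

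Among 12 genes of LXR and its targets, which include Abca1, Abcg5, Abcg8 and Srebf1, 1 was called higher and 1 lower, where 1.28% and 2.29% of all tested genes were. Mylip, a ubiquitin ligase for lipoprotein receptors, was higher with the mimic at very low levels, with 0.391 and 0.258 CPM in the control libraries and 1.12 and 1.29 under the mimic (log2 fold change 1.86, SE 0.38, adjusted p = 0.0471). Smpdl3a, a phosphodiesterase, fell from 16.8 and 11.9 CPM to 5.14 and 6.29 (log2 fold change -1.33, SE 0.21, adjusted p = 0.0251). Neither the other genes of this list nor its 4 shared members passed the test.

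Of 13 genes of lysosomal and intracellular sterol transport, 1 was called higher and 1 lower, beside the same shares of all tested genes (1.28% and 2.29%). Gramd1b, which moves cholesterol from the plasma membrane to the endoplasmic reticulum, rose from 9.83 and 10.9 CPM to 19.6 and 16.2 (log2 fold change 0.79, SE 0.15, adjusted p = 0.0421). Nceh1, a hydrolase of cholesteryl esters, fell from 46.1 and 25.6 CPM to 15.7 and 15.4 (log2 fold change -1.21, SE 0.25, adjusted p = 0.0471). In both genes the groups did not overlap. Of 13 genes of the isoprenoid branch, which leaves the mevalonate arm at farnesyl diphosphate, and of 9 genes of sterol sensing and degradation in the endoplasmic reticulum, none was called, with medians of 0.13 and 0.04 (2 and 1 at an unadjusted p under 0.05, as were 24.8% of all tested genes).

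Some values carry a doubt of counting. Expected counts divide reads that match several transcripts, and they were not whole numbers in 13 of the 29 genes in at least 1 library and in 8 genes in all 4, namely Hmgcs1, Acat2, Idi1, Fdps, Lss, Cyp51, Tm7sf2 and Scap. For these genes reads may be shared with near-identical copies or overlapping genes. The annotated span of 12 of the 29 genes overlaps that of another tested gene. The lowest count of any of the 29 genes was 299, for Abca1 in control replicate 1, and the lowest of a synthesis gene was 651. The part of depth in the results was not tested.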

How the data were processed

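RNA-seq was analysed in 4 libraries of mouse SI organoids, 2 with the mimic control and 2 with the miR-181a-5p mimic, grouped by the sample titles. After trimming with Trimmomatic, the authors ran RSEM on GRCm38 transcripts and deposited expected counts per gene without normalization. TPM, scaled to the same total in each library, were also deposited by the authors. The supplemental methods describe depletion of ribosomal RNA and the labels poly(A) selection. Strand settings and the annotation release are not given in the sources used here. Of the columns of each table, 3 matched no sample and were not used.

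Identifiers matched symbols in the mouse GENCODE release M21 for 55141 genes. Rounded expected counts entered the quasi-likelihood test of edgeR 4.0.16 under R 4.3.3 (filterByExpr, TMM, estimateDisp, the non-legacy glmQLFit, glmQLFTest), with Benjamini-Hochberg adjustment over all 17155 genes tested. A gene was called at an adjusted p under 0.05. The standard error is the log2 fold change divided by the square root of F. The common biological coefficient of variation was 0.13. The alternatives were edgeR's exact, likelihood-ratio, robust and legacy tests, DESeq2 1.42.0, other scaling factors (RLE, upper-quartile, none), other filters, limma 3.58.1 on log2 TPM with a pseudocount of 1 (also without a filter) or 0.1, for genes at 1 TPM or more in 2 libraries, and leaving out each library. The legacy form was added after the data were seen. The steps were tested on simulated counts.

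The 29 genes and the other lists were chosen with earlier results of these data known. Values in each library are given for genes of uptake, efflux and esterification, regulators, synthesis genes whose groups did not overlap, and those with the highest or lowest level or log2 fold change of their arm. From other lists, genes with an adjusted p under 0.05 are named, and examples beyond these, such as Fasn, Acly and Stard4, were chosen after their values were seen. Promoters and the miRNA came from RefSeq (GRCm38.p6), 3' UTRs from GENCODE. Plots used matplotlib 3.10.9.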

Additional observations from a re-analysis of the deposited data

How the results depend on the processing

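Of 493 comparisons of a gene's log2 fold change with its value under 17 alternatives, 440 kept their direction and their side of the threshold, 44 passed the threshold only under the alternative and 9 reversed. No call could be lost, because none of the 29 genes was called in the main fit. The number of the 29 genes called was 0 by the quasi-likelihood test, 9 by the exact and by the likelihood-ratio test, and 6 by DESeq2. All were higher, where these tests in the same order called 1.28%, 4.41%, 4.62% and 3.57% of all genes higher. Leaving out 1 library gave 0 to 18 called genes, a median of synthesis from 0.26 to 0.78, a median of uptake and efflux from -0.06 to 0.12, and a difference of medians from 0.24 to 0.66. Under the other alternatives the median of synthesis was 0.45 to 0.57 and the number called was 0 apart from the 3 tests named. The 9 reversed values were in 6 genes. Upper-quartile factors gave Stard4 -0.014. Leaving out 1 library moved Stard4 from -0.16 to 0.22, Hmgcs1 from -0.035 to 0.53, Pmvk from -0.11 to 0.41 (-0.02 without mimic replicate 4), Srebf2 from -0.063 to 0.26, Insig1 from -0.16 to 0.48 (-0.13 without mimic replicate 4) and Soat2 from -0.50 to 0.16. The lowest values came without mimic replicate 4 in Stard4, Hmgcs1 and Srebf2 and without control replicate 1 in Pmvk, Insig1 and Soat2. Soat2 was at 0.16 without control replicate 2. The cause was not tested. Over all genes, called genes ranged from 2 (log2(TPM + 1) without a filter, by limma) to 2365 (without control replicate 2), beside 612. No paired analysis was possible because the groups share no replicate numbers. With 2 libraries per group, leaving out 1 library changed calls. The part of depth was not tested.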

Other observations

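Among the marker lists, whose genes are not sterol genes, single genes passed edgeR's quasi-likelihood test. Over all tested genes, 3.57% passed it in either direction (1.28% higher and 2.29% lower with the mimic). Of 18 absorptive enterocyte genes, the peptidase gene Anpep was called and fell by 2.14 on the log2 scale (1851 and 1245 CPM in the controls, 289 and 412 with the mimic). Of 9 proximal genes, Onecut2 had a log2 fold change of -1.18 and the iron exporter gene Slc40a1 one of -6.69, the latter from 51.01 and 121 CPM in the controls to 0.224 and 1.38 CPM. Of 10 distal genes, Cubn was higher by 3.44, and Fabp6, an ileal bile acid carrier, was at 0 to 0.03 CPM. Of 6 stem cell genes Lgr5 was called and fell by 1.38, but 4 of the 6 had a log2 fold change above 0 and 2 below. The median of the stem cell genes was 0.14. Of 8 proliferation genes Mcm2 was called and higher by 0.51, with Mki67 at -0.01. In that list 7 genes were above 0 and 1 below, with a median of 0.16, where 48.6% of all tested genes were above 0. None of 8 secretory cell genes, 8 epithelial genes or the 3 tested genes of other cell types was called. At an unadjusted p under 0.05 stood 1, 2 and 0 of them, beside 24.8% of all tested genes.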
